A study of Drosophila melanogaster with 16 samples.

Results

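The comparison described here is that between midguts of virgin male flies labelled Myc RNAi and midguts of virgin male controls, across all genes that the male and female libraries expressed. It used 7 of the 8 male libraries: control replicates 5 to 8 and Myc RNAi replicates 13 to 15, chosen by their labels. Replicate 16 of the Myc RNAi label held testis transcripts and was kept out of the fit behind the calls given here; it serves only as a check and in an alternative fit that added it. Of 16680 genes in the table, 12982 had a read in a male library and 9323 passed the filter on low counts.

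The series profiled dissected Drosophila melanogaster midguts by RNA sequencing in both sexes and 2 genotypes, and its title concerns Myc, organ zonation and sex bias in the intestine. Controls are labelled w1118; mex1-GAL4 TS/+, so they carried the GAL4 driver without an RNAi line. The other genotype is labelled mex1TS > MycRNAi GD1419. The driver mex1-GAL4 is active in enterocytes, so other gut cells were not the target. Each library pooled 30 midguts, and 3 to 4 independent samples are described per group. The sources used here give neither the age of the flies nor how long the RNAi was induced. The p-values therefore measure the spread between pools of guts of 1 RNAi line and 1 control cross.

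The fly midgut is lined mostly by enterocytes, absorptive cells that secrete proteases, amylases and lipases into the lumen and take up sugars, amino acids, lipids and metals. Intestinal stem cells and their enteroblast daughters replace enterocytes, and enteroendocrine cells release peptide hormones. Myc is a basic helix-loop-helix transcription factor that pairs with Max, and in flies it is best known for driving ribosome production and cell growth. Regions along the midgut differ in digestive enzyme expression.

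Total counts were 27922532 to 50720292 in the 4 controls and 18239086 to 25064185 in Myc RNAi replicates 13 to 15. In controls 31.3% to 38.6% of the counts fell on the 50 most abundant genes, and in the others 22.9% to 24.2%. Replicates of a group differed by more than sampling noise, with a chi-square per degree of freedom of 24.8 or more in every pair. The testis germline list summed to 0.0505 to 0.103 CPM (the count of a gene scaled to library size) in controls, 0.532 to 1.14 CPM in replicates 13 to 15 and 453 CPM in replicate 16. Its 1 tested member, djl, passed the test with 6 reads in the controls and 48 in replicates 13 to 15. Markers of fat body summed to at most 14 CPM, hemocytes to at most 6.62 CPM and accessory gland to at most 0.472 CPM in the 7 libraries.

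Myc itself (FBgn0262656, chromosome X, 3373159 to 3391697) went against the label. Its normalised counts were 22.5, 19.7, 25.2 and 33.7 CPM in the controls and 30.4, 33.0 and 35.4 CPM in replicates 13 to 15. The groups overlapped, and of replicates 13 to 15 only replicate 15 lay above every control. The log2 fold change was 0.38 ± 0.25 (SE), with an edgeR adjusted p of 0.244. Replicate 16 had 58.6 CPM. In females control libraries averaged 88.3 CPM and those with the RNAi label 58.5 CPM, a log2 change of -0.59 (edgeR adjusted p = 0.049), and the difference between the sexes did not pass (0.97, edgeR adjusted p = 0.2). A lower Myc transcript level is therefore not shown by the male counts, and "labelled Myc RNAi" is used throughout. The driver gene mex1 was at 215 to 519 CPM in controls and 473 to 567 CPM in the others, with a log2 difference of 0.46 and an edgeR adjusted p of 0.103.

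Male midguts labelled Myc RNAi differed from controls at 3701 of the 9323 tested genes (39.7%), of which 1975 (21.2%) rose and 1726 (18.5%) fell at an edgeR adjusted p below 0.05. The rises and falls were of unlike kinds. Genes for digestive enzymes and cytosolic ribosomal proteins mostly fell and detoxification genes fell more often than they rose, whereas genes for the proteasome, cell junctions, the cell cycle and stem cells mostly rose. More than 2-fold changes were found for 827 higher and 872 lower genes, and more than 4-fold changes for 219 and 314. The lists named here are described by counts beside these shares. The libraries of the groups did not overlap at 4212 of the tested genes (45.2%). The rule for naming the largest rises and falls required this, so for those genes it is no further evidence. Scaling by total counts in place of TMM moved the median log2 change of all tested genes from 0.01 to 0.50 and gave 4214 higher and 796 lower genes, so statements on direction are relative to the TMM scale.

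The share of genes that fell was highest among the abundant genes. Of the 100 most abundant tested genes 59 fell and 16 rose, with a median log2 change of -0.89. Of the next 400, 205 fell and 87 rose, with a median of -0.64. Among ranks 501 to 2000 the counts were 393 lower and 510 higher, and the median was 0.06. Lower in rank the calls were fewer per gene, with 571 lower and 716 higher of 3000 genes at ranks 2001 to 5000 and 498 lower and 646 higher of the remaining 4323. In whole guts, fewer cells of a type and less RNA per cell cannot be told apart.

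**Figure D1:**
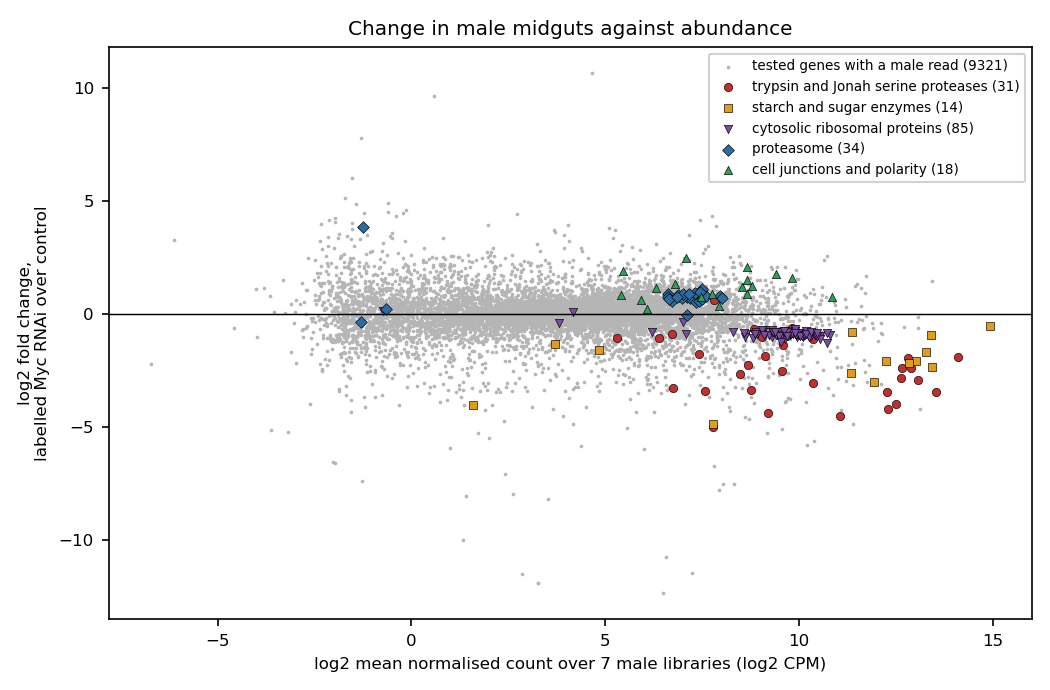
Log2 fold change in males (y axis) against log2 mean normalised count over the 7 male libraries (x axis). Grey points are tested genes with a male read, and coloured symbols are the tested members of 5 lists; most serine proteases and starch enzymes lie below 0 on the right, ribosomal proteins form a band near a median of -0.89 and proteasome genes a band near 0.75. Total-count scaling moves these medians to -0.37 and 1.25.

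Many of the largest falls were in digestive enzymes. The largest among the genes that the rule for naming took was that of CG34316, a gene in no list, from 9.33 to 35.1 CPM in controls to 0.0336 to 0.133 CPM, with 5 reads in replicates 13 to 15. All 6 lysosomal-type alpha-mannosidase genes, enzymes that trim mannose from glycans, fell. LManIV (FBgn0032067, chromosome 2L, 8769159 to 8772344) was at 218, 659, 384 and 432 CPM in the controls and at 2.56, 1.91 and 1.28 CPM in replicates 13 to 15. Every library of the second group lay more than an order of magnitude below every control. Its log2 fold change was -7.79 ± 0.69 (SE), with an edgeR adjusted p of 5.62e-07. LManIII fell by 5.82 on the log2 scale, LManV and LManVI by 4.25, LManI by 2.81 and LManII by 1.97. These genes are similar in sequence, and since the handling of multi-mapping reads is unknown here, the split between them is uncertain.

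Of 31 tested trypsin-type and Jonah serine proteases, which cut dietary protein, 29 fell and etaTry rose, with a median log2 change of -2.41 against 0.01 for all tested genes. Jon25Bii (chromosome 2L, 4952243 to 4953136) was at 4961, 4382, 3064 and 2049 CPM in controls but 206, 111 and 153 CPM in the others, a log2 change of -4.53 ± 0.65 (edgeR adjusted p = 4.45e-05). The groups stood apart, and control replicate 8 was the lowest of the controls. Jon74E fell by 4.38, Jon25Biii by 4.19, zetaTry by 3.30 and Jon99Ci by 2.82 on the log2 scale. Together these proteases held 9.54% to 14.1% of all counts in controls and 2.73% to 3.1% in replicates 13 to 15. The Jonah genes are near-identical in places, so single values are less certain than the sum.

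Bace, an aspartic protease gene (chromosome 2L, 8494893 to 8496307), had 7164, 4434, 3627 and 3089 CPM in controls but 176, 209 and 78.1 CPM in the others. The highest of the second group was far below the lowest control, and the log2 change was -4.89 ± 0.45 (edgeR adjusted p = 7.29e-07). Ser8, a further serine protease, fell by 4.99. Of 9 tested carboxypeptidases, 5 fell and none rose, with a median of -0.90; CG8560 fell by 4.55 and CG17633 by 3.92.

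Of 14 enzymes of starch and sugar digestion, 13 fell, with a median of -2.09. Amyrel, an amylase relative (FBgn0020506, chromosome 2R, 16651095 to 16652699), was at 407, 428, 299 and 363 CPM in controls but 15.5, 4.39 and 17.8 CPM in the others. No library overlapped, as the rule for naming required, and replicate 14 was the lowest. Its log2 change was -4.89 ± 0.45 (edgeR adjusted p = 8.54e-07). The amylase genes Amy-p and Amy-d, a near-identical pair, fell by 2.35 and 2.18, and the maltase gene Mal-A3 fell by 2.60. Mal-A1 had the smallest fall, 0.55, and its edgeR adjusted p of 0.0271 became 0.0511 to 0.0889 when replicate 5, 7, 14 or 15 was left out; it also missed the threshold under total-count scaling, with no filter on low counts and in the 7 male libraries alone. Starch and sugar enzymes held 9.73% to 11.2% of counts in controls and 5.62% to 6.23% in the others.

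Of 14 tested lipases of the gut list, which release fatty acids from dietary fat, 10 fell and Lip4 rose, with a median of -2.25. Lip3 was at 126, 124, 103 and 87.8 CPM in controls and at 2.36, 0.709 and 2.15 CPM in the others, and CG31091 fell by 7.51. Lip4 went the other way, from 7.06 to 19.5 CPM in controls to 71.1 to 99.6 CPM, a log2 rise of 2.79. Of 4 tested lysozymes, enzymes that cut bacterial cell walls, LysB and LysE fell by 3.46 and 4.27 and LysX rose by 3.91. LysX stood at 18.4 to 51.7 CPM in controls and at 469 to 541 CPM in the others.

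**Figure D2:**
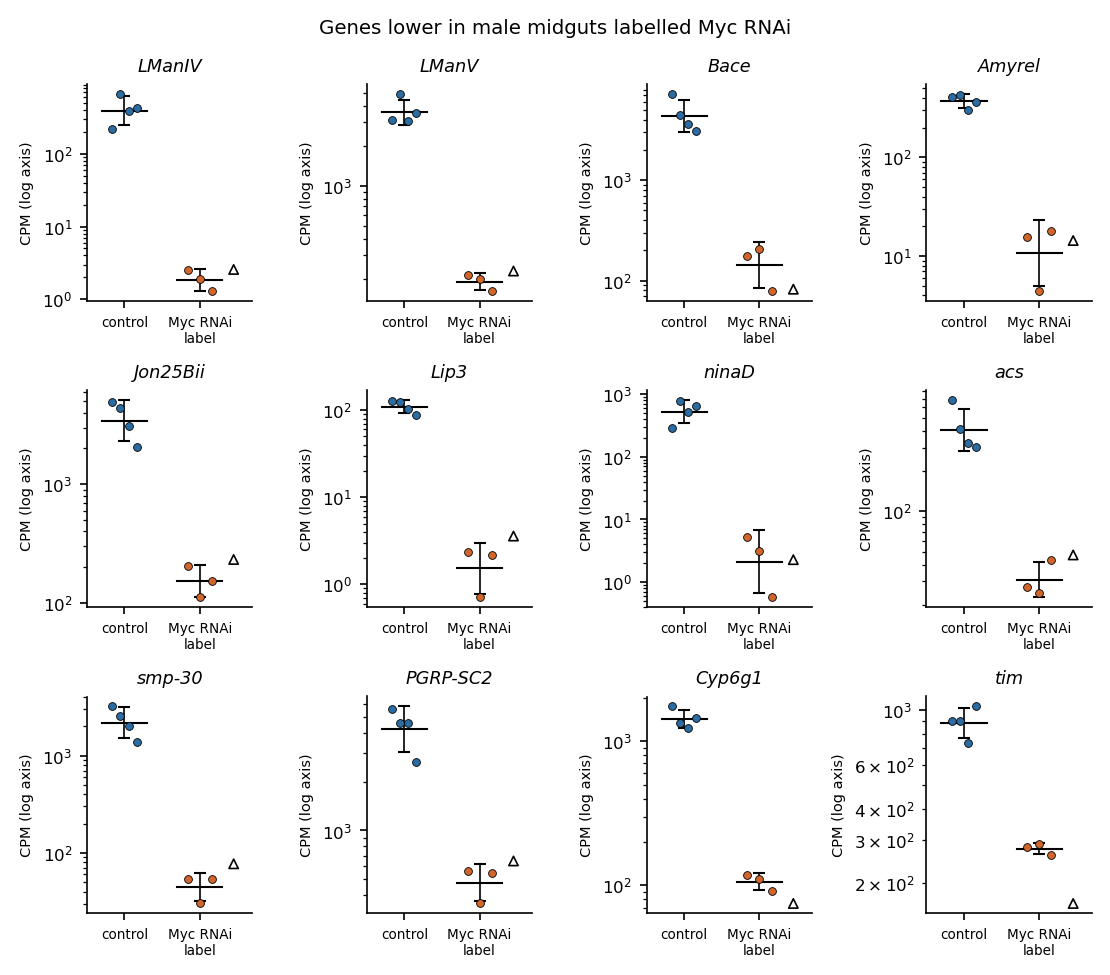
Normalised counts (CPM, log axis) of 12 genes that fell in males; blue points are control replicates 5 to 8, orange points replicates 13 to 15 labelled Myc RNAi, lines and bars the mean and SD on the log2 scale, and the open triangle replicate 16, which entered none of these tests. In each panel the 3 orange points lie below all 4 blue points, and the triangle also lies below the controls.

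Uptake genes were more mixed. The scavenger receptor ninaD (FBgn0002939, chromosome 2L, 18081628 to 18083608), needed for carotenoid uptake, had 292, 761, 522 and 638 CPM in controls but 5.19, 3.15 and 0.572 CPM in the others. The groups were far apart, with a log2 change of -7.55 ± 1.01 (edgeR adjusted p = 2.38e-05). Of 12 genes of its CD36-type family, 5 fell and pes rose; the median was -0.11, and 0.37 under total-count scaling. Of 15 sugar transporters, 8 fell and sut3 rose, with a median of -1.06; CG1208 fell by 2.77 and CG14606 by 3.41. Under total-count scaling 3 of them fell and 3 rose, and sut3, at most 1.86 CPM, had an edgeR adjusted p of 0.0778 without replicate 13. Of 18 amino acid transporters, 4 fell and 3 rose, with a median of -0.02 (0.46 under total-count scaling). Among them acs went from 303 to 678 CPM in controls to 24.7 to 43.4 CPM, a fall of 3.76 on the log2 scale, whereas CG5535 rose by 1.64.

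Of 29 genes for metal handling, 16 fell and 2 rose, with a median of -0.72. Zip42C.1, a zinc transporter of the ZIP family, was at 34.5, 33.1, 26.1 and 30.0 CPM in controls and at 1.78, 0.133 and 1.14 CPM in the others, a fall of 4.88. Its neighbour Zip42C.2 rose by 1.08. Zip71B fell by 1.70 and Zip48C by 1.58. Under total-count scaling 7 metal genes fell and 5 rose.

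Metabolic genes fell in part. Of 21 genes of fatty acid oxidation 13 fell and CG4860 rose (median -0.63); under total-count scaling 8 fell and 6 rose. Of 15 genes of glycolysis 8 fell and none rose (median -0.61), against 3 lower and 3 higher under total-count scaling (median -0.10), with Pgi and fbp, glucose-6-phosphate isomerase and fructose-1,6-bisphosphatase, both down by 2.34. Of 19 genes of the tricarboxylic acid cycle 9 fell and none rose (median -0.33, or 0.17 under total-count scaling), and Idh, isocitrate dehydrogenase, fell by 2.36. Of 21 genes of lipid synthesis and storage 9 fell and 2 rose (median -0.26, or 0.22 under total-count scaling). The lipophorin receptor genes moved apart, in that LpR1 fell by 2.74 and LpR2 rose by 1.78. Of 64 tested genes of oxidative phosphorylation 7 fell and 1 rose, below the background shares. Their median of -0.21 turned to 0.30 under total-count scaling, with 2 lower and 17 higher, and leaving out replicate 13 left 3 lower. The senescence marker homologue smp-30 (chromosome 3R, 14745901 to 14751246) fell from 1394 to 3206 CPM to 30.2 to 54.4 CPM, and Acsf2, an acyl-CoA synthetase gene, fell by 4.33.

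Detoxification genes fell more often than they rose. Of 65 tested cytochrome P450 genes, which oxidise foreign compounds and hormones, 31 fell and 10 rose (median -0.88). Cyp6g1, known for its part in insecticide resistance (chromosome 2R, 12185667 to 12188431), was at 1744, 1339, 1240 and 1448 CPM in controls and at 118, 111 and 91.4 CPM in the others. The groups lay apart with little spread, and the log2 change was -3.76 ± 0.19 (edgeR adjusted p = 2.79e-09). Cyp12e1 moved against the family, from 1.95 to 2.54 CPM to 26.1 to 28.5 CPM, a rise of 3.62. Of 29 UDP-glycosyltransferases, which conjugate sugars to such compounds, 15 fell and 3 rose (median -0.68). Among them Ugt37B1 fell by 4.00 and Ugt301D1 rose by 2.04. Under total-count scaling 23 cytochrome P450 genes fell and 15 rose (median -0.33). On that scale 12 UDP-glycosyltransferases fell and 8 rose (median -0.18). Of 32 glutathione transferases 13 fell and 5 rose, with a median of -0.42. Under total-count scaling 9 of them fell and 10 rose, with a median of 0.06. GstT4 fell by 2.90 and GstD8 rose by 2.14. Of 18 antioxidant genes 10 fell and none rose (median -0.72), against 7 lower and 4 higher under total-count scaling (median -0.25). Catalase, Cat, fell by 2.03 and the peroxiredoxin gene Prx2 by 1.68. Markers of the Malpighian tubule, an excretory organ attached to the gut that also expresses detoxification enzymes, summed to 79.7 to 143 CPM in controls and 32 to 61.8 CPM in the others. Of the 6 tubule markers Irk2 fell, and their part in these falls was not tested.

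**Figure D3:**
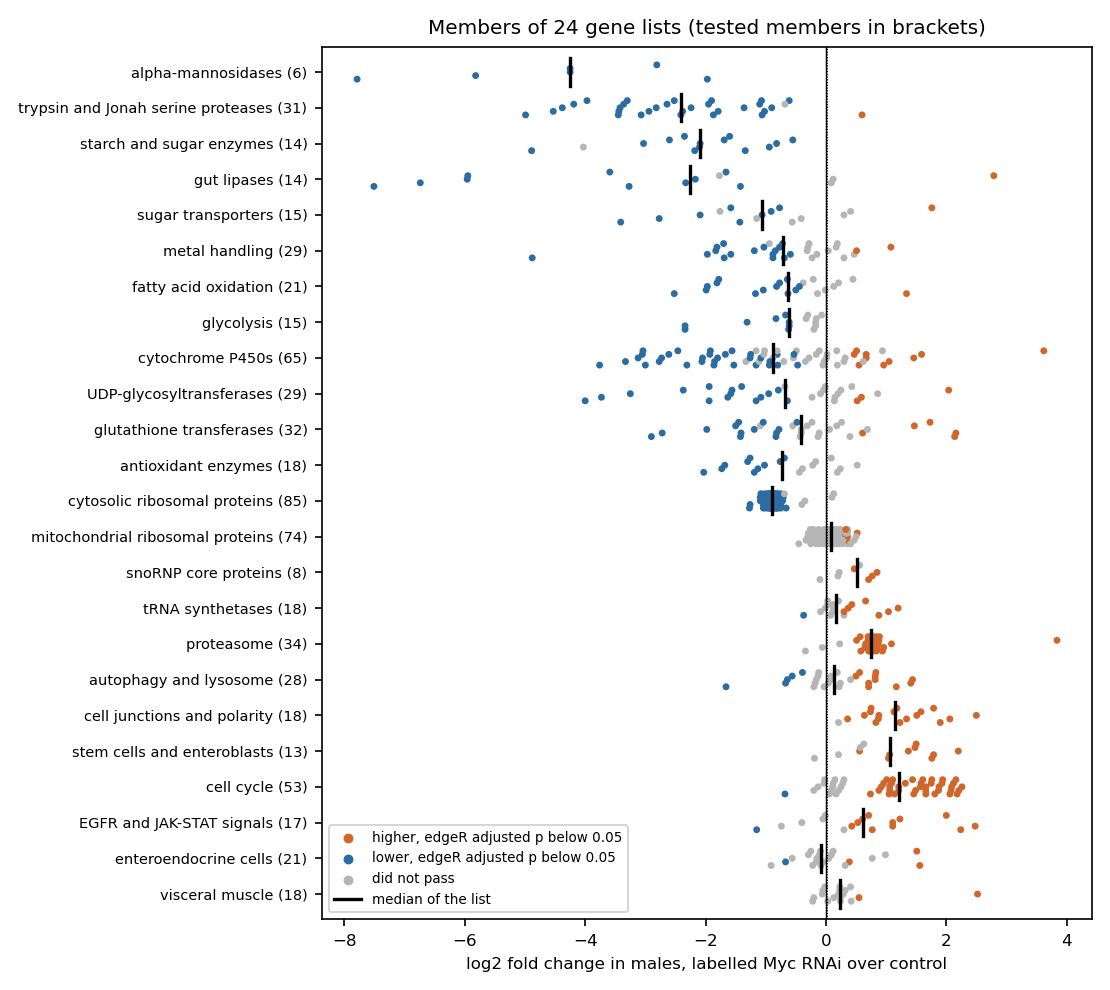
Log2 fold change in males of each tested member of 24 gene lists; orange and blue points passed the test, grey points did not, and black bars mark list medians. Digestive lists lie to the left, with medians down to -4.25, and cell cycle, junction and proteasome lists to the right, with medians of 1.21, 1.16 and 0.75. Total-count scaling moves all points to the right and takes the medians of glutathione transferases and enteroendocrine cells above 0.

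The growth genes split. Of 85 tested cytosolic ribosomal protein genes 79 fell and none rose, within a narrow range and with a median of -0.89. RpL5 was at 2985, 1951, 2058 and 1948 CPM in controls and at 890, 990 and 903 CPM in the others, a log2 change of -1.27 ± 0.21 (edgeR adjusted p = 0.000203). The groups did not overlap, and control replicate 5 was the highest. The count of falling members was 24 under total-count scaling, with a median of -0.37, and 45 when replicate 16 was added. RpL5, the member with the lowest log2 change, was at 1218 CPM in replicate 16, below every control. The list as a whole summed to 75721 CPM in replicate 16, within the control range of 66067 to 121316 CPM. In the other male libraries labelled Myc RNAi it summed to 46056 to 49962 CPM. The fall of the list sum was therefore not seen in replicate 16. Paralogous ribosomal protein genes such as RpS14a and RpS14b cannot be separated with certainty.

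Other genes for making ribosomes did not follow the ribosomal proteins. Of 40 ribosome assembly genes 4 fell and none rose, below the background share, with a median of 0.02; under total-count scaling 1 fell and 15 rose, with a median of 0.48. Of 8 core proteins of small nucleolar ribonucleoproteins, which modify ribosomal RNA, 4 rose and none fell (median 0.52). Among them nop5 was at 23.5, 27.0, 30.6 and 26.8 CPM in controls and at 44.7, 47.0 and 46.9 CPM in the others, a rise of 0.77. Fibrillarin, Fib, rose by 0.85 and Nop60B by 0.71. Of 74 mitochondrial ribosomal protein genes 5 rose and none fell (median 0.08), and between 1 and 8 rose when 1 male library was left out. Under total-count scaling 55 of them rose, with a median of 0.57. Of 47 translation factors 9 fell and 3 rose, with a median of -0.15 that turned to 0.34 under total-count scaling. The translational repressor gene eIF4EHP rose from 40.0 to 55.0 CPM to 126 to 162 CPM. Of 18 tRNA synthetases, which load amino acids on tRNAs, 7 rose and IleRS fell (median 0.17). MetRS rose by 1.20 and ThrRS by 0.88, whereas IleRS fell by 0.37, a value of 0.12 under total-count scaling and of -0.30 (edgeR adjusted p = 0.0939) without replicate 13.

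Proteasome genes rose together. Of 34 tested proteasome genes, which encode the particle that degrades ubiquitin-tagged proteins, 31 rose and none fell, with a median of 0.75. Rpt3, an ATPase of the regulatory particle (FBgn0028686, chromosome X, 11125101 to 11126785), was at 118, 123, 123 and 119 CPM in controls and at 273, 222 and 277 CPM in the others. The controls were nearly equal and all lay below the lowest of the second group, with a log2 change of 1.09 ± 0.12 (edgeR adjusted p = 4.8e-06). Prosalpha5, of the core particle, rose by 0.88, Rpt5 by 0.87 and Prosalpha4 by 0.74. Proteasome genes held 0.283% to 0.324% of counts in controls and 0.69% to 0.754% in the others. Of 28 genes of autophagy and the lysosome 10 rose and 5 fell (median 0.14), against 17 higher and 1 lower under total-count scaling (median 0.64). The kinase gene Atg1, which starts autophagy, rose by 1.17 and Atg4b by 1.44, and the glucocerebrosidase gene Gba1a fell by 1.66. Without replicate 13 or 14, 3 of them fell.

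Of 10 tested genes of cell death and competition 6 rose and none fell (median 0.42). The caspase gene Drice rose from 22.4 to 41.5 CPM to 58.0 to 82.7 CPM, the caspase inhibitor gene Diap1 by 1.35 and the Diap1 antagonist hid by 1.10 on the log2 scale. Of 20 heat shock and chaperone genes 5 rose and 1 fell. Hsp70Bb had 4 reads in the 4 controls and 4573 in replicates 13 to 15, where it stood at 56.8, 60.9 and 58.3 CPM. The Hsp70 copies are near-identical, so which copy made these reads is uncertain. Whether any of them came from the RNAi transgene, which the controls lacked, was not tested. The rises of Hsp23 and Hsp26, which encode small heat shock proteins, rested on replicate 14, at 368 CPM of Hsp23 against 25.4 and 82.3 CPM. Without it their edgeR adjusted p became 0.0713 and 0.245, and 2 genes of the list rose and 2 fell.

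Genes of cell contact rose nearly as a whole. Of 18 genes for cell junctions and polarity 17 rose, with a median of 1.16, and crb did not pass. Fas3, a septate junction adhesion protein (FBgn0000636, chromosome 2L, 18320102 to 18393441), was at 41.3, 49.5, 46.4 and 43.2 CPM in controls and at 295, 188 and 280 CPM in the others. Replicate 14 was the lowest of the second group and still well above every control, and the log2 change was 2.50 ± 0.18 (edgeR adjusted p = 9.07e-08). Talin, rhea, which links integrins to the cytoskeleton, rose by 2.06, the polarity gene sdt by 1.90 and the integrin subunit gene mys by 1.79. The smooth septate junction genes of enterocytes moved likewise. Of these mesh (chromosome 3R, 31178389 to 31195762) was at 2094, 1713, 1570 and 1672 CPM in controls and at 6098, 4832 and 5870 CPM in the others. It rose by 1.67, Ssk by 1.29, Tsp2A by 1.42 and hoka by 1.49.

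Of 11 tested enterocyte markers, which include mesh, Ssk and Tsp2A given above, 5 rose and none fell (median 0.46). The brush border myosin genes Myo31DF and Myo61F changed by 0.16 and 0.32 and did not pass. Alp1, an alkaline phosphatase gene, had no read in the 4 controls and 0.843 to 1.01 CPM in replicates 13 to 15. Markers of visceral muscle, which surrounds the gut and also uses integrin and talin, summed to 3377 to 3558 CPM in controls and 4338 to 4762 CPM in the others. Of 18 tested muscle markers Zasp52 and Tm1 rose, Zasp52 by 2.52, while the muscle myosin gene Mhc changed by 0.23 and did not pass. Under total-count scaling 15 of the 18 rose, with a median of 0.70, and the part of muscle in the junction rises was not tested.

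Genes of renewal mostly rose. Of 53 cell cycle genes 38 rose and Psf1 fell, with a median of 1.21. Mcm7, a subunit of the replicative helicase, was at 3.28, 2.44, 2.78 and 2.54 CPM in controls and at 11.9, 12.8 and 13.6 CPM in the others. The replicates agreed within each group, and the log2 change was 2.21 ± 0.30 (edgeR adjusted p = 2.92e-05). The mitotic kinase gene polo rose by 2.16 and RnrL, for nucleotide synthesis, by 2.09. The fall of Psf1, a replication factor gene, by 0.68 had an edgeR adjusted p of 0.0435, which became 0.0725 to 0.194 without replicate 5, 6, 8, 13 or 15; the call was also lost under total-count scaling, with no filter on low counts, in the 7 male libraries alone and with replicate 16 added. Of 13 tested genes of stem cells and enteroblasts 9 rose and none fell (median 1.06), and between 6 and 10 rose when 1 male library was left out. Sox21a, a factor for enteroblast differentiation (chromosome 3L, 14103481 to 14108118), was at 17.7, 18.2, 24.4 and 15 CPM in controls and at 72.1, 91.1 and 95.2 CPM in the others. It rose by 2.20, Sox100B by 1.76, the stem cell Notch ligand Delta by 1.37 and the Notch receptor N by 1.48. The rise of esg, a stem cell factor, by 0.56 had an edgeR adjusted p of 0.0405, which became 0.0699 to 0.148 without replicate 5, 6, 8, 14 or 15, and 0.0757 with replicate 16 added.

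Of 17 genes of the EGFR and JAK-STAT signals, which drive stem cell division in the gut, 11 rose and sty fell (median 0.61). The EGFR ligand gene vn was at 3.78, 2.75, 2.28 and 2.77 CPM in controls and at 10.9, 9.49 and 14.3 CPM in the others. All 3 lay above the controls. The gene rho, which activates EGFR ligands, rose by 2.24 and the cytokine receptor gene dome by 0.71. The fall of the EGFR inhibitor sty, by 1.15, had an edgeR adjusted p of 0.028, which became 0.0609 to 0.113 without replicate 6, 7, 8, 13 or 15, and it was not called under total-count scaling, by limma voom or in the 7 male libraries alone. Few enteroendocrine markers passed. Of 21 tested, 3 rose and 1 fell, and the median was -0.08, or 0.40 under total-count scaling. The peptide hormone genes ITP and Mip rose by 1.51 and 1.56.

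**Figure D4:**
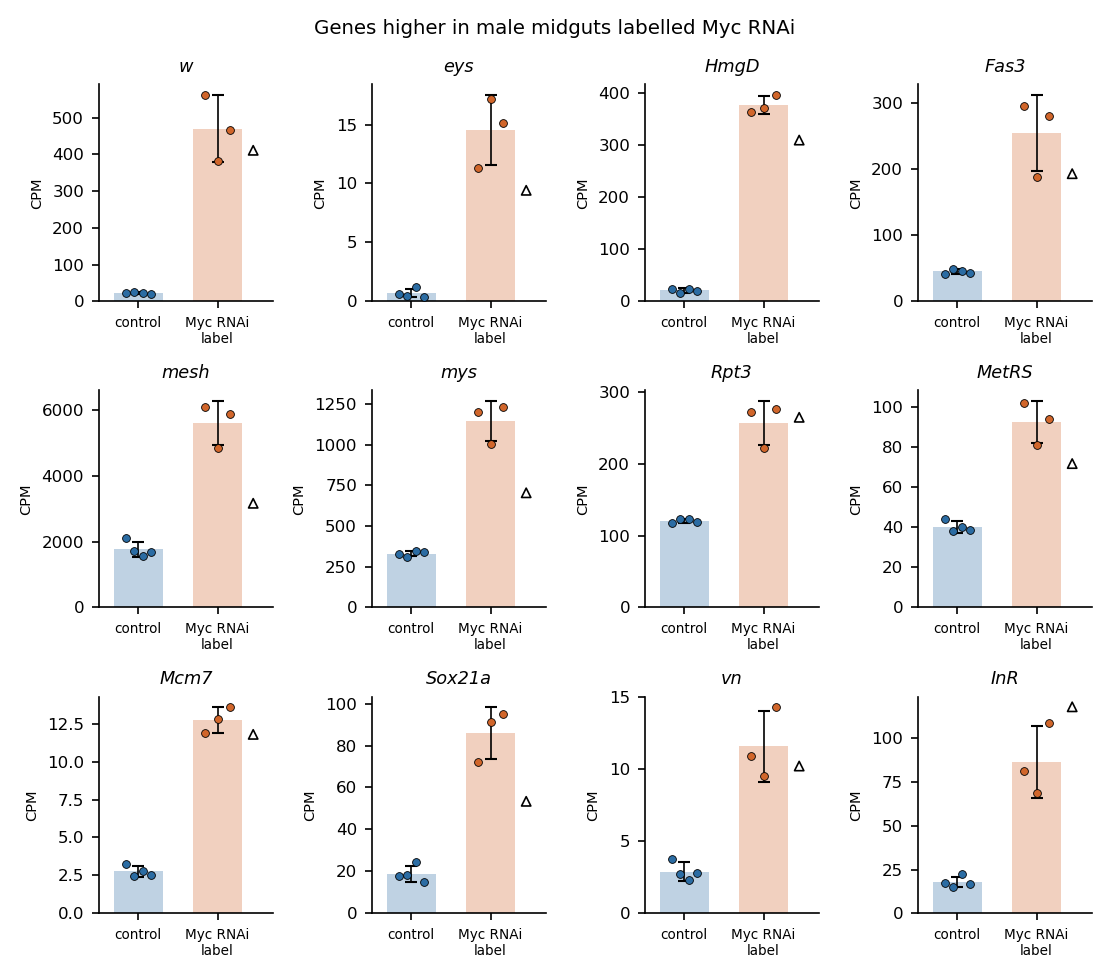
Normalised counts (CPM) of 12 genes that rose in males; bars are means with SD of 4 control replicates (blue) and of replicates 13 to 15 labelled Myc RNAi (orange), points are libraries and the open triangle is replicate 16, which entered none of these tests. In each panel all orange points and the triangle lie above all blue points.

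The genes with the largest rises belonged to no single list. The eye pigment transporter gene w, which is mutant in w1118 and whose mini-white form is a usual marker on transgenes, was at 23.9, 26.5, 23.4 and 19.6 CPM in controls and at 562, 381 and 466 CPM in the others. The difference was far larger than the spread in either group, with a log2 change of 4.33 ± 0.19 (edgeR adjusted p = 7.24e-10). The extracellular matrix gene eys (chromosome 2L, 2311680 to 2358944) rose from 0.39 to 1.19 CPM to 11.3 to 17.2 CPM. HmgD, a DNA-bending protein of the high mobility group (chromosome 2R, 21701458 to 21716727), rose from 15.9 to 24.5 CPM to 364 to 397 CPM. The BMP-binding protein gene cv-2 rose by 3.50, Drep2 by 3.22, the matrix metalloproteinase gene Mmp2 by 2.97, the ubiquitin ligase gene gol by 2.94 and the RNA helicase gene Mov10 by 2.87 on the log2 scale. In these libraries, differences of genetic background between the control cross and the RNAi cross cannot be told apart from effects of the RNAi.

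Insulin and TOR signalling genes moved in both directions. Of 28 tested members 9 rose and 4 fell, with a median of 0.01. Under total-count scaling 12 rose and 2 fell, with a median of 0.47. The insulin receptor gene InR (chromosome 3R, 21570248 to 21619321) was at 17.2, 15.3, 22.4 and 16.7 CPM in controls and at 81.1, 68.9 and 109 CPM in the others. All 3 of the latter lay above the controls, and the log2 change was 2.27 ± 0.26 (edgeR adjusted p = 5.71e-06). ImpL2, a secreted protein that binds insulin-like peptides, rose by 2.70. The transcription factor gene foxo, which insulin signalling restrains, fell by 1.07 and Sesn, a TOR inhibitor, by 1.65. Myc network partners changed little: Max by 0.22 and Mnt by 0.47, neither passing, and of 10 members rept rose and Mondo fell, the latter not under total-count scaling, where 6 of them rose. Without replicate 14 the edgeR adjusted p of rept was 0.0858.

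Of 23 tested genes for peptidoglycan recognition and the IMD immune pathway 7 rose and 8 fell, with a median of -0.11 (0.36 under total-count scaling). The 3 PGRP-SC genes, which encode secreted amidases that degrade bacterial peptidoglycan and dampen immune signalling, fell the most. PGRP-SC2 (chromosome 2R, 8716950 to 8717695) was at 5612, 4610, 4582 and 2633 CPM in controls and at 564, 355 and 545 CPM in the others, a log2 change of -3.16 ± 0.32 (edgeR adjusted p = 1.57e-06). PGRP-SC1a fell by 5.05 and PGRP-SC1b by 3.74, and the caspase gene Dredd rose by 0.75. Of 14 tested antimicrobial peptide genes Drs fell and none rose. Its controls ranged from 0.383 to 11.3 CPM, and its edgeR adjusted p of 0.0352 became 0.0618 to 0.123 without replicate 5, 7, 13 or 15, with the call lost also under total-count scaling, by limma voom and in the 7 male libraries alone. Of 23 genes for the peritrophic matrix, chitinases and mucins 8 rose and 3 fell, with a median of 0.02. Mur29B, a mucin-related gene, rose from 242 to 348 CPM to 1202 to 1241 CPM and the chitinase gene Cht9 by 1.53, whereas Peritrophin-15a, of the lining that separates food from epithelium, fell by 3.69.

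Transcription factors that mark midgut regions mostly did not pass. Of 24 tested, 6 fell and the ligand gene dpp rose, with a median of -0.05 (0.44 under total-count scaling). The gene odd was at 57.4, 113, 39.7 and 60.2 CPM in controls and at 14.2, 31.0 and 20.8 CPM in the others, a fall of 1.62. The copper cell factor dve fell by 0.74 and bowl by 0.99, and both missed the threshold under total-count scaling, where 1 of the list fell and 9 rose. Of 23 tested subunits of the V-ATPase, the proton pump that acidifies the copper cell region and lysosomes, 8 fell and 2 rose. Their median of -0.38 turned to 0.09 under total-count scaling, and 2 fell without replicate 15. Vha100-2 fell by 1.34.

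Of 8 circadian clock genes 3 fell and none rose, with a median of -0.06 (0.37 under total-count scaling). The clock gene tim (chromosome 2L, 3493986 to 3508119) was at 902, 899, 737 and 1033 CPM in controls and at 281, 287 and 261 CPM in the others. The controls lay well above, and the log2 change was -1.69 ± 0.16 (edgeR adjusted p = 9.93e-07). The light receptor gene cry fell by 1.31 and Clk by 1.14, while per, the partner of tim, changed by 0.50 and did not pass. The time of day of the dissections was not tested. Of 19 tested genes of ecdysone and juvenile hormone 7 rose and 5 fell, with a median of -0.07 (0.38 under total-count scaling). The ecdysone-induced gene Eip78C rose by 2.16, and the juvenile hormone epoxide hydrolase genes Jheh3 and Jheh2 fell by 1.38 and 1.17.

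Whether males changed differently from females was tested as the male change minus the female change. It differed at 132 genes (1.42% of those tested), of which 98 had a more negative and 34 a more positive change in males. At an unadjusted p below 0.05 there were 1168. Of the 132 genes, 97 fell in males, and 93 of those fell by more than in females. The alpha-mannosidases were among them, all 6. LManIV changed by -7.79 in males and -3.27 in females, a difference of -4.52 (edgeR adjusted p = 0.00529), and LManV by -4.25 and -1.51. Bace changed by -4.89 in males and -1.62 in females, and Oat, ornithine aminotransferase, by -3.03 and -0.28. The glycolytic gene Pgi changed by -2.34 and -0.84, and Cyp6g1 by -3.76 and -2.64.

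The opposite sign of difference was found for some genes of ribosome production. None of the 85 cytosolic and 74 mitochondrial ribosomal protein genes tested passed as differing between the sexes. Of 8 core proteins of small nucleolar ribonucleoproteins 4 differed, all with a more positive change in males. nop5 changed by 0.77 in males and -0.32 in females, a difference of 1.10 (edgeR adjusted p = 0.00779), Nop56 by 0.47 and -0.60 and Gar1 by 0.56 and -0.95, of which the male change of Gar1 did not pass. Of 40 ribosome assembly genes 6 differed. The genes gol, pyr, an FGF ligand, and Zip42C.2 also had a more positive change in males, gol with 2.94 against 1.34. The total of 132 depended on single libraries: it was 40 without replicate 15, 48 without 13, 63 without 6, 77 without 14 and 80 without 9. Of the 27 such differences of genes named here, 13 passed without replicate 15, 14 without 13, 16 without 6, 19 without 14 and 19 without 9, and all 27 kept their sign.

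**Figure D5:**
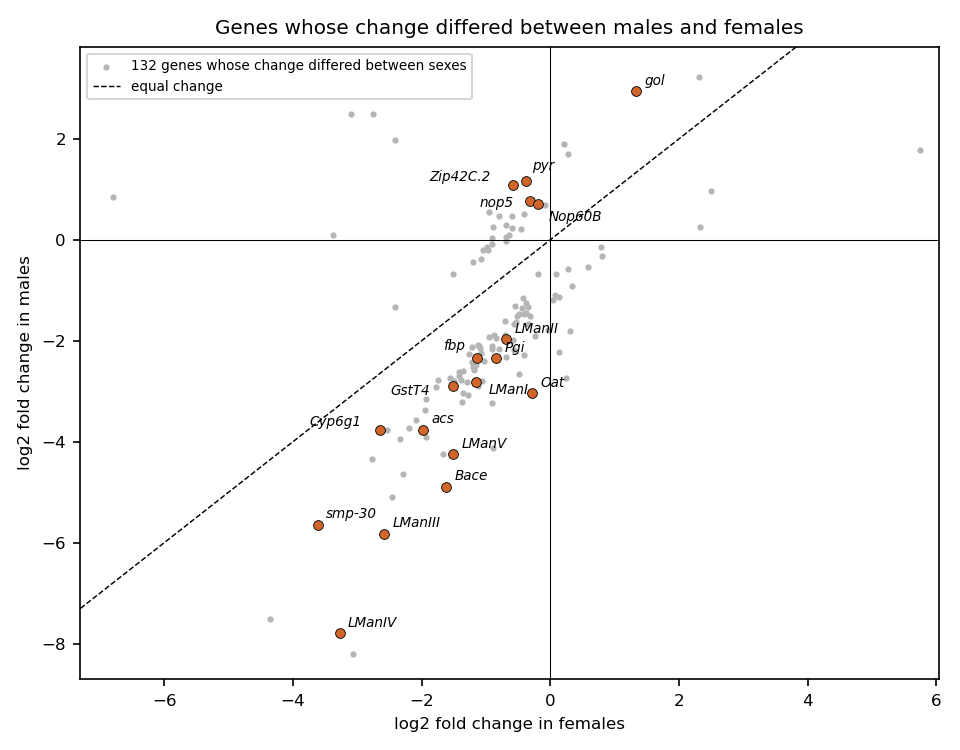
Log2 fold change of libraries labelled Myc RNAi over controls in males (y axis) against females (x axis) for the 132 genes whose change differed between the sexes; orange points are named genes and the dashed line marks equal change. The alpha-mannosidases, Bace and Oat lie below the line, and nop5, Nop60B, gol, pyr and Zip42C.2 above it.

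Replicate 16, which entered none of the tests behind the calls above, gave the same direction as the other 3 libraries for most genes. Of 872 genes that fell by more than 2-fold 94% lay below the control mean in it, and of 827 that rose by more than 2-fold 99.5% lay above. Over all changed genes this held for 91.6% of the 1726 lower and 88.1% of the 1975 higher genes. The control mean came from the same controls that entered the calls, so the check is not independent of them. LManIV was at 2.57 CPM, Bace at 82.3 CPM, Rpt3 at 265 CPM and Fas3 at 193 CPM in this library. Its testis transcripts included Mst98Ca at 101 CPM and dj at 44 CPM, genes of the male germline. Adding it to the fit gave 2011 higher and 1644 lower genes.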

How the data were processed

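The authors deposited whole-number read counts per gene, with no normalization, as 1 table of 16 libraries. Per the labels' protocols, poly(A) RNA was selected and directional libraries were prepared; the dm6 build, TopHat2 2.0.11 and featureCounts are named per the submitters' processing notes. The annotation, the strand setting of the counting and the handling of multi-mapping reads are not given in these sources, so values of overlapping, antisense and near-identical genes are uncertain. Of 16680 symbols, 12504 were current symbols of the reference gene tables, 4101 were synonyms there and 75 were neither. Coordinates are 1-based, from the Ensembl annotation of BDGP6, the same assembly as dm6.

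The quasi-likelihood test of edgeR 4.0.16 (R 4.3.3) was fitted to 15 libraries, all but Myc RNAi replicate 16, with TMM factors, filterByExpr by group and 1 mean per sex and genotype. The females entered to share the estimate of spread. Changed means a Benjamini-Hochberg adjusted p below 0.05 over all 9323 tested genes. CPM values use TMM-scaled library sizes and are not per length, so levels of different genes are not compared. Precision follows depth: the male libraries compared held 18239086 to 50720292 counts. The fit was tested on simulated counts. Alternatives were limma 3.58.1 (voom), DESeq2 1.42.0, size factors, total-count scaling, filters, the 7 male libraries alone, replicate 16 added and each library left out.

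The members, the 57 gene lists and the rule for naming genes were chosen with earlier results of these data known. The rule took the 15 largest rises and falls with no overlap between libraries and a mean of at least 5 CPM, up to 2 more per direction with a CG or CR number as name, 5 interaction genes per direction, and per list the 4 changed members with the lowest p, up to 2 that went against the list and all members of lists of up to 15. Outside the rule, with values already seen, stand RpS14a, RpS14b, crb, Mhc, whe, CG16826, lcs and the genes of the neighbouring runs. A planned count of promoter motifs was not run, since no genome sequence was used here.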

Additional observations from a re-analysis of the deposited data

Results flagged for a closer look

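A single control library was flagged as an outlier against the other 3 for some of the 166 named genes examined. By its nominal rate the rule used flags about 1 in 20 groups by chance alone, so some of these flags can be chance. Control replicate 5 was high for RpL5 (2985 CPM against 1948 to 2058), GstT4 (2436 CPM against 1282 to 1478), CG1208 (1163 CPM against 812 to 866), CG10477 (1835 CPM against 971 to 1046), the tubule marker Irk2 (133 CPM against 64.9 to 76) and LysB (16.7 CPM against 4.02 to 5.95). It was low for the EGFR inhibitor sty (29.9 CPM against 138 to 157). Control replicate 7 was high for Nop56 (35.5 CPM against 30 to 30.5) and RnrL (8.3 CPM against 6.94 to 7.06). It was low for crb (52.9 CPM against 65.2 to 66.5) and CG14606 (7.31 CPM against 10.6 to 11.2), and control replicate 8 was low for Nplp4 (0.144 CPM against 0.303 to 0.331).

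For other named genes the change differed between the sexes by the interaction test of edgeR. Digestive and uptake genes with a more negative change in males were LManIV (difference -4.52), LManIII (-3.24), LManV (-2.75), LManVI (-2.59), LManI (-1.66), LManII (-1.29), Bace (-3.27), Mal-A3 (-1.24), Mal-A8 (-0.98), the lipase gene CG31091 (-3.15), CG1208 (-1.38) and acs (-1.80). Metabolic and detoxification genes of that kind were Oat (-2.75), smp-30 (-2.03), Pgi (-1.51), fbp (-1.20), Cyp6g1 (-1.11) and GstT4 (-1.40). The gene CG34316, in no list, had a difference of -5.13. A more positive change in males was found for nop5 (1.10), Nop56 (1.07), Nop60B (0.90), Gar1 (1.51), gol (1.61), pyr (1.56), Drep2 (0.91) and Zip42C.2 (1.66). The gut lipase gene CG6296, not among the 27 named differences counted, went against the other digestive genes, with a difference of 3.47. It changed by 0.09 in males, which did not pass, and by -3.38 in females.

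Replicate 16, used only as a check and in an alternative fit, held testis germline transcripts at a sum of 453 CPM, against 0.0505 to 0.103 CPM in the controls.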

How the results depend on the processing

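No paired analysis was possible because the replicate numbers of the male groups, 5 to 8 and 13 to 16, share none. Size factors, DESeq2, limma voom, other filters and the 7 male libraries alone left the counts of higher and lower genes within 1.5 times the values given. Total-count scaling gave 4214 higher and 796 lower genes, 1828 and 508 past 2-fold. The number changed in males was 2966 to 3641 with 1 library left out, the higher genes 1617 to 1910 and the lower genes 1349 to 1731. Past 2-fold these were 750 to 845 and 789 to 890. The sex differences numbered 305 with DESeq2 (89 more positive, 216 more negative), 77 with total-count scaling (16 and 61) and 40 (without replicate 15) to 173 with 1 library left out (10 to 50 and 30 to 126), and 19 were more positive with replicate 16 added. Of 153 changed genes named, 136 passed under every alternative that tested them (3 were not tested with the filter of 1 CPM and 1 in the 7 male libraries alone); IleRS reversed to 0.12 under total-count scaling; the cause was not tested. Of 27 named sex differences 10 passed under every alternative, and all 27 kept their sign. Depth limits genes such as djl, which passed with 6 control reads.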

Other observations

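Several of the falls came from genes that lie side by side on a chromosome. The longest runs of neighbouring tested genes changed in 1 direction held 9 genes each. One ran on chromosome 3R from CG17477 to CG5255 (17126088 to 17138865, median log2 change -2.47), and the other on 2R from Mal-A1 to mtt (8449664 to 8532294, median -1.60), which takes in the maltase genes Mal-A1 to Mal-A8. A run of 8 lower genes on 3L reached from CG10477 to Jon65Ai (6033199 to 6054443, median -2.99). Lower runs of 5 genes held PGRP-SC1a, PGRP-SC1b and PGRP-SC2 on 2R (median -3.74) and LysB and LysE on 3L (median -3.24).

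Runs of higher genes were also present. A run of 7 on 3L from Larp4B to CG14968 (3224838 to 3303112) had a median of 2.32, and a run of 6 on 2L from Npc2a to Nplp4 (1988290 to 2009072) a median of 3.57. Npc2a, a sterol-binding protein gene, was at 39.6 to 69.4 CPM in controls and 155 to 186 CPM in replicates 13 to 15. These runs were picked after the values were seen and were not tested. Calls at the ends of some runs were lost under alternatives. Larp4B was not called without replicate 15, CG14968 without 13 and Nplp4 without 14. Mal-A1, the first gene of a lower run, lost its call under 7 alternatives. By chromosome the share of higher genes was 20.4% to 23% and of lower genes 16.8% to 20.1% outside chromosome 4, which held 78 tested genes.

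Other gene lists are given by their counts, beside the 39.7% of all tested genes that changed. Of 8 tested Niemann-Pick genes for sterol transport, Npc1a and Npc2a rose and 1 fell (median 0.42), and of 18 subunits and factors of RNA polymerases I and III 2 fell and 1 rose (median -0.14, or 0.32 under total-count scaling). Of 14 genes of endoplasmic reticulum stress 2 rose and 2 fell, and of 2 tested aspartic proteases 1 rose and Bace fell. Of 17 genes of sex determination and dosage compensation the roX2 RNA (lncRNA:roX2), part of the complex that raises expression from the male X chromosome, rose by 1.13, from 11 to 19.9 CPM to 30.8 to 40.3 CPM. Of 4 tracheal markers 1 rose and 1 fell, of 5 tested fat body markers 1 fell, and of 3 neuronal and 2 tested hemocyte markers none passed.

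A few genes split the male controls in pairs. The gene whe was at 343 and 287 CPM in control replicates 5 and 7 and had no read in replicates 6 and 8, CG16826 was at 428 and 635 CPM in the former and had no read in the latter, and lcs was at 320 and 344 CPM against 0.0349 and 0.0616 CPM. In replicates 13 to 15 none of the 3 exceeded 0.222 CPM, and none passed the test. These genes were picked after their values were seen.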
